A study of Mus musculus with 16 samples.

Results

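The subject is the nuclear-encoded subunits of the respiratory complexes I, III, IV and V in epithelial cells of the mouse caecum. They were taken from the deposited expression table by gene symbol: Nduf followed by a, b, c, s or v and a digit, Uqcr, Cox4 to Cox8, and Atp5. Of 24091 genes in the table, 80 carried such a symbol. Cox6b2, a testis form, was set aside, and 6 genes had a mean under 1 TPM (a share of all transcripts, corrected for their length) over the 9 libraries, which left 73 genes among the 12155 genes tested: 36 of complex I, 8 of complex III, 12 of complex IV and 17 of complex V. The symbol rule and the filter use no difference between groups, but the members were chosen with earlier results of these data known. The cells came from C57BL/6 mice, an inbred laboratory strain. In the ampicillin-tributyrin group (Amp_Tributyrin), the drinking water held ampicillin at 1 g/L and Splenda, a sweetener, at 10 g/L for 7 days, and tributyrin was given by gavage 6 h before harvest. Tributyrin is an ester of glycerol from which gut lipases release butyrate. The ampicillin-mock group (Amp_Mock) drank the same water and was gavaged with 25% glycerol. The vehicle-mock group (Vehicle_Mock) drank water with Splenda alone and received the same glycerol gavage. Each group had 3 libraries, and the labels do not say whether these came from separate mice, so the p-values measure the spread between libraries, which may be technical. The 7 chromatin samples of the series were not analysed here.

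Complex I passes electrons from NADH to ubiquinone, complex III passes them on to cytochrome c and complex IV to oxygen; each pumps protons, and complex V, the ATP synthase, uses the gradient to make ATP. Most subunits are encoded in the nucleus and imported, while a small set of core subunits is encoded by the mitochondrial genome. In the large intestine, epithelial cells oxidise butyrate made by bacteria as a main fuel, and the electrons from that oxidation enter the respiratory chain. The mitochondrially encoded subunits were not analysed here.

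Bases before annotated starts of 5 subunit genes are shown because the results turn on these genes. They are the 3 genes of the Cox7a family, which moved apart, Ndufv3, which rose furthest with ampicillin, and Atp5c1, a riser. Of the 2 RefSeq windows of Atp5c1, the 1 shown holds letters of the motif of NRF1 (nuclear respiratory factor), a known activator of subunit genes. Each line gives the 120 bases before an annotated start, 5′ to 3′ on the gene's strand, from RefSeq on GRCm38.p6, the build also called mm10. Capitals mark matches on either strand to GCGCA-N-GCGC (NRF1, where N is any base) or GCGTG (the core of the hypoxia response element, whose other form is ACGTG).
Cox7a1 (chr7:30184051-30184170, + strand): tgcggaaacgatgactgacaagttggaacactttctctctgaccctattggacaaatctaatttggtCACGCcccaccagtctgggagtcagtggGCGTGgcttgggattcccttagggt
Cox7a2 (chr9:79759854-79759973, - strand): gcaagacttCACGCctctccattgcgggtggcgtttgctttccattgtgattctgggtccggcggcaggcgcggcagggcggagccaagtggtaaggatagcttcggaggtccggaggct
Cox7a2l (chr17:83514334-83514453, - strand): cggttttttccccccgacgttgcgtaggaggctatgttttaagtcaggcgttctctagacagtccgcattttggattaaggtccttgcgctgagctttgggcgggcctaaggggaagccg
Ndufv3 (chr17:31519995-31520114, + strand): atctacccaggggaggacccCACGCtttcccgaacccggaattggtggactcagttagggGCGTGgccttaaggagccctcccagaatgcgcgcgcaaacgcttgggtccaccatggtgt
Atp5c1 (chr2:10080433-10080552, - strand): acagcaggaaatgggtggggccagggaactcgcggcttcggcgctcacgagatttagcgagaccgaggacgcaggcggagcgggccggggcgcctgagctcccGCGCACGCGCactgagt
The lines of Cox7a2 and Atp5c1 lie before starts inside the genes as listed, which run over chromosome 9, 79755241 to 79771422, and over chromosome 2, 10056030 to 10080510, and those of the other 3 end next to the gene's outer start. In the Atp5c1 line the NRF1 letters overlap a GCGTG match on the opposite strand. The other window of Atp5c1 lies at the gene's outer start, and its 250 bases before that start hold neither NRF1 letters nor GCGTG. RefSeq windows of 300 bases, 250 before and 50 after the start, were at hand for 63 of the 73 genes, 69 windows in all. NRF1 letters stood in 23.2% of these 69 windows, against 10.1% of the 12014 windows of all genes tested and 4.60% of all 32851 windows. By complex the share was 23.5% in I, 20.0% in III (1 of 5 windows), 10.0% in IV (1 of 10) and 30.0% in V. AAGATGGC, the letters of YY1, stood in 17.4% of the subunit windows, against 4.59% of windows of genes tested and 2.75% of all windows. They stood in 20.6% of complex I and 25.0% of complex V windows, but in 0 of 5 of complex III and 0 of 10 of complex IV. The shares lay closer for CCGGAAG of the ETS factors (20.3%, against 18.2% of windows of genes tested and 8.86% of all), for ACGTG (27.5%, against 25.8% and 19.6%) and for GCGTG (53.6%, against 50.7% and 32.4%). These are counts of letters and say nothing of binding.

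The libraries' TPM values summed to between 999833 and 999866, and 17242 to 17722 genes were above 0. Mir6236, a short entry, took 0.705 to 0.863% of all TPM in ampicillin-tributyrin, 1.24 to 4.04% in ampicillin-mock and 2.14 to 4.48% in vehicle-mock libraries, so it was lowest in each tributyrin library; the comparisons were repeated after rescaling without such short entries. TPM keeps no depth, so the error given is the spread between libraries. TPM is also a share of the total: in these bulk samples, fewer cells of a type and less RNA per cell cannot be told apart. Markers of absorptive colonocytes summed to 34589 to 35695 TPM in ampicillin-tributyrin, 36179 to 38479 TPM in ampicillin-mock and 37237 to 39699 TPM in vehicle-mock libraries, with all 9 of those in the table above a mean of 1 TPM in each group. The 12 markers of fibroblasts, smooth muscle and endothelium summed to 5.25 to 7.45 TPM, 5.76 to 6.86 TPM and 9.32 to 10.1 TPM in the same order of groups, so by these lists the cells were epithelial. Markers of small intestinal enterocytes summed to 1620 to 1668 TPM, 1631 to 1826 TPM and 1637 to 2057 TPM, with vehicle-mock replicate 2 the highest.

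Subunit transcripts were abundant and spanned a wide range of levels. The 73 genes together made up 7.15 ± 0.333% of all TPM in ampicillin-tributyrin, 7.70 ± 0.0843% in ampicillin-mock and 7.10 ± 0.371% in vehicle-mock libraries (SD, n = 3 each). Over the 9 libraries, complex I genes ran between 54.9 TPM for Ndufa11, an accessory subunit of the membrane arm, and 1433 TPM for Ndufa3, with a median of 444 TPM. Complex III ran between 396 TPM for Uqcrc2, a core subunit, and 1822 TPM for Uqcr10, a small subunit. Complex IV ran between 426 TPM for Cox7a2l and 3512 TPM for Cox6a1. Among genes counted as complex V by their Atp5 name, Atp5k (subunit e of the membrane part) was the highest of the 73, at 6449 TPM. Atp5s (coupling factor B) was the lowest of the 73, at 10.6 TPM, and Atp5sl was at 45.8 TPM. Atp5s and Atp5sl were counted by name alone, and their place in the enzyme was not examined. In all, 34 of 36, 8 of 8, 12 of 12 and 15 of 17 genes of complexes I, III, IV and V had a mean of at least 100 TPM. The 6 genes under the filter were far below it, the highest at 0.0802 TPM: Cox6a2 and Cox8b (muscle forms), Cox8c and Cox7b2 (testis forms), Cox4i2 (a lung form) and Ndufa4l2 (a hypoxia-induced form). Of the paired isoforms, Cox4i2 was at most 0.00326% of Cox4i1 and Cox4i2 together in any library, Cox6a2 at most 0.00753% of its pair and Ndufa4l2 at most 0.0120% of its pair. Cox7a1 was the exception among the muscle-type isoforms, and its values are given below with its family.

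**Figure D1:**
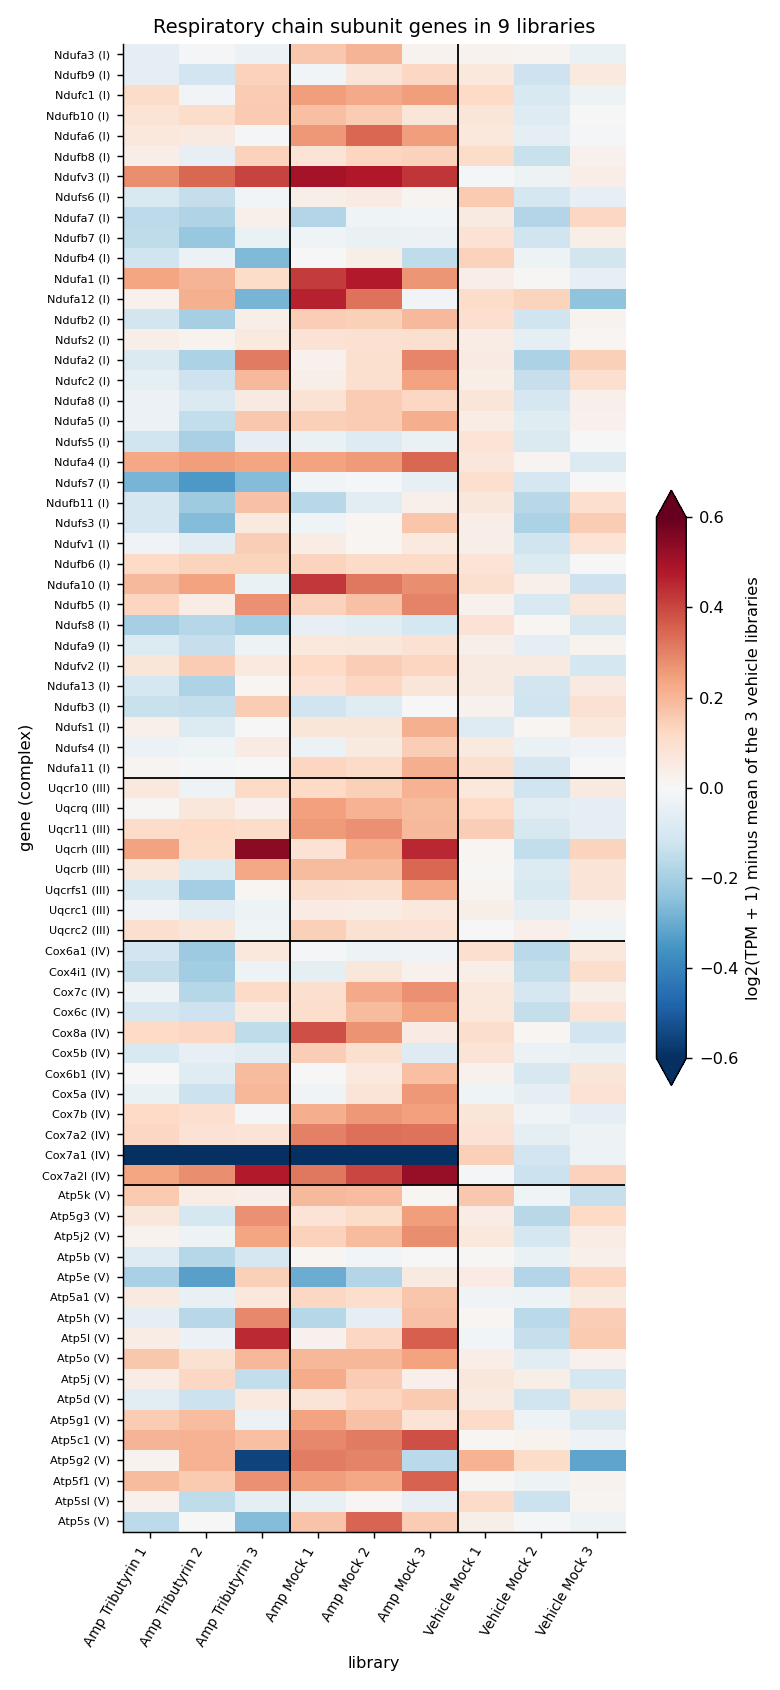
Heat map of log2(TPM + 1) of the 73 genes (rows, by complex and falling mean level) in the 9 libraries (columns), as the difference from the mean of the 3 vehicle-mock libraries; the colour scale stops at 0.6 in either direction, and Cox7a1 lies beyond it. Warm cells fill most rows of the ampicillin-mock columns, where 59 of 73 genes lay above the vehicle-mock mean.

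Ampicillin was set against vehicle, with mock gavage in both, to ask what the antibiotic changed. Subunit genes moved by small amounts, mostly upward: 14 of 73 rose, 1 fell, and that one, Cox7a1, moved furthest. A gene was called where limma, fitted to log2(TPM + 1) of all 12155 genes, gave a Benjamini-Hochberg adjusted p under 0.05. Over all genes tested, 11% were called higher and 10.2% lower. The subunits' 14 of 73 is 19.2% higher. The median log2 fold change was 0.13 over the subunits, 0.02 over all genes tested and 0.01 over the 1520 genes with a mean of at least 100 TPM, a class in which most subunits fall. By complex, the median was 0.12 in complex I (6 higher), 0.19 in complex III (2 higher), 0.14 in complex IV (3 higher, 1 lower) and 0.15 in complex V (3 higher). Without vehicle-mock replicate 2 it was 0.06 in complex I and 0.09 in complex IV. Cox7a1 apart, 0 subunit genes were lower by limma, also at an unadjusted p under 0.05, where 27 were higher. For 36 genes each ampicillin-mock library lay above each vehicle-mock library, 49.3% of the subunits against 22.6% of all genes tested; the reverse held for Cox7a1 alone, against 18.2% of all genes tested. As a comparison outside mitochondria, 1 of 76 cytosolic ribosomal protein genes was called higher and 0 lower by limma (9 and 0 at an unadjusted p under 0.05), with a median of 0.06. The summed TPM of the complexes were 9.09% higher with ampicillin for complex I, 14.6% for complex III, 5.81% for complex IV and 8.29% for complex V. Without vehicle-mock replicate 2 the value for complex IV was 2.33%.

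**Figure D2:**
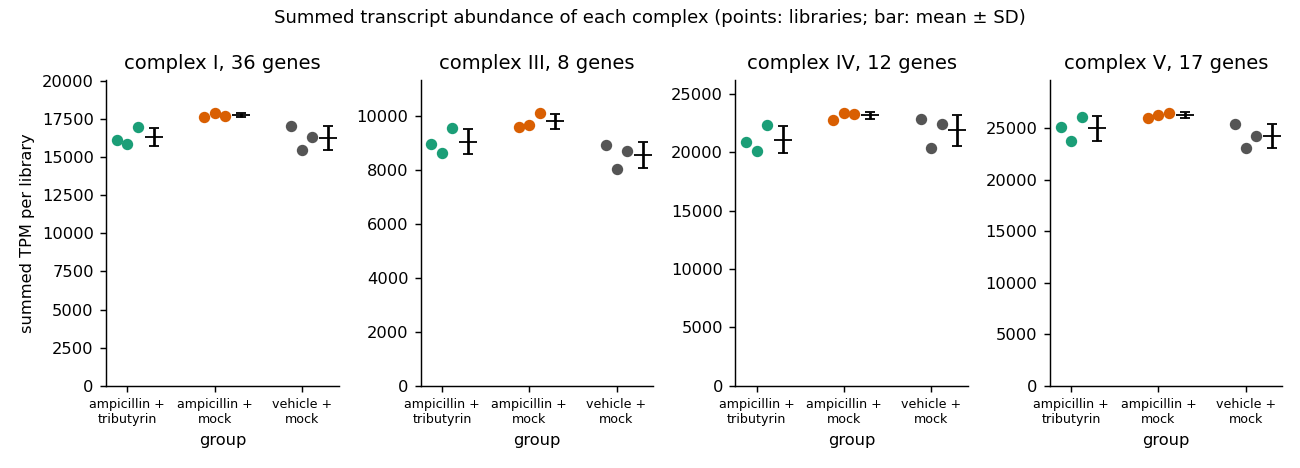
Summed TPM of each complex (vertical axis from 0) in each library (points), with the mean and SD of the 3 libraries beside them, for ampicillin + tributyrin, ampicillin + mock and vehicle + mock. The ampicillin-mock libraries of complex III sit at 9601, 9695 and 10143 TPM, above the 3 vehicle-mock libraries at 8945, 8027 and 8724 TPM.

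In complex I the risers were accessory subunits. Ndufv3, at the NADH-oxidising end (chromosome 17, 31520115 to 31531326), had 773, 761 and 735 TPM in ampicillin-mock libraries, against 543, 535 and 561 TPM in vehicle-mock libraries. The groups did not overlap, and the log2 fold change was 0.47 ± 0.05 (SE; adjusted p = 0.000311), or 38.5% more. Ndufa1, a small membrane subunit needed for assembly, had 580.4, 603 and 520.5 TPM in ampicillin-mock libraries, against 446, 435 and 419.5 TPM in vehicle-mock libraries, a log2 fold change of 0.39 ± 0.06 (SE; adjusted p = 0.00355). Ndufa6, a subunit of the LYR family that binds the mitochondrial acyl carrier protein, had 797, 842 and 789 TPM, against 695, 638 and 661 TPM with vehicle, a log2 fold change of 0.28 ± 0.05 (SE; adjusted p = 0.00455). In both genes each ampicillin-mock library was above each vehicle-mock library. Ndufa10, a matrix subunit with a kinase-like fold, had 388, 359 and 350.1 TPM, against 308, 294 and 264 TPM with vehicle, and its log2 fold change was 0.34 ± 0.09 (SE; adjusted p = 0.0243). Ndufc1, a small membrane subunit, had 904, 889 and 904 TPM, against 826, 713 and 745 TPM with vehicle, at 0.24 ± 0.07 (SE; adjusted p = 0.0319). Ndufa4, named for complex I and counted there by its name but now known as a complex IV subunit, had 442, 446 and 474 TPM, against 392, 378 and 353 TPM with vehicle, at 0.28 ± 0.05 (SE; adjusted p = 0.00533). The groups did not overlap for any of these. Of the 7 core subunits encoded in the nucleus, which hold the flavin and the iron-sulfur clusters, 0 were called by limma (1, higher, at an unadjusted p under 0.05). Their log2 fold changes ran between -0.07 (Ndufs8, adjusted p = 0.373) and 0.13 (Ndufv2, adjusted p = 0.118). The other complex I genes that were not called ran up to 0.26 for Ndufa12, whose libraries spread widely (636, 579.7 and 456 TPM in ampicillin-mock, against 498, 506 and 390.2 TPM in vehicle-mock libraries).

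In complex III, Uqcrq and Uqcr11, both small supernumerary subunits, rose. Uqcr11 had 1497, 1516 and 1436 TPM in ampicillin-mock libraries, against 1388, 1174 and 1208 TPM in vehicle-mock libraries, a log2 fold change of 0.24 ± 0.06 (SE; adjusted p = 0.0295). Uqcrq had 1980.2, 1928 and 1907 TPM, against 1818, 1594 and 1609.8 TPM with vehicle, at 0.21 ± 0.06 (SE; adjusted p = 0.0309). All 8 genes of the complex taken by name had a positive log2 fold change, and for 7 of them the groups did not overlap. Uqcrh, the acidic hinge protein beside cytochrome c1, was the 1 that overlapped: 1239, 1359.6 and 1597 TPM in ampicillin-mock, against 1177, 1051 and 1281 TPM in vehicle-mock libraries, at 0.25 ± 0.13 (SE; adjusted p = 0.217). The core subunits Uqcrc1 (0.05, adjusted p = 0.414) and Uqcrc2 (0.11, adjusted p = 0.139) and the Rieske iron-sulfur protein Uqcrfs1 (0.14, adjusted p = 0.196) were not called by limma. Nor was Cyc1, a complex III gene that the name rule leaves out (0.09, adjusted p = 0.345), whose groups overlapped.

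In the ATP synthase, 3 genes rose, 1 of the catalytic head and 2 of the stator. Atp5c1, the gamma subunit that turns inside the head (chromosome 2, 10056030 to 10080510), had 686, 697 and 734 TPM in ampicillin-mock libraries, against 564, 571 and 550.0 TPM in vehicle-mock libraries, a log2 fold change of 0.33 ± 0.04 (SE; adjusted p = 0.00103). Atp5f1, subunit b of the peripheral stalk, had 579, 571 and 623 TPM, against 489, 477 and 493 TPM with vehicle, at 0.28 ± 0.05 (SE; adjusted p = 0.00554). Atp5o, the protein that joins the stalk to the head, had 1201, 1201 and 1235 TPM, against 1075, 997 and 1065 TPM with vehicle, at 0.21 ± 0.05 (SE; adjusted p = 0.0148). In all of them the lowest ampicillin-mock library was above the highest vehicle-mock library. The subunits that make ATP, alpha (Atp5a1, 0.13 ± 0.05 (SE; adjusted p = 0.0893)) and beta (Atp5b, -0.00 ± 0.04 (SE; adjusted p = 0.986)), were not called. Nor were the genes Atp5g1, Atp5g2 and Atp5g3, which encode the same mature ring subunit c, with log2 fold changes of 0.17, 0.15 and 0.15. Atp5g2 had the widest spread of these, with 701, 697 and 506 TPM in ampicillin-mock, against 653, 611 and 454 TPM in vehicle-mock libraries. Furthest down was Atp5e, the epsilon subunit, at -0.14 ± 0.14 (SE; adjusted p = 0.536).

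**Figure D3:**
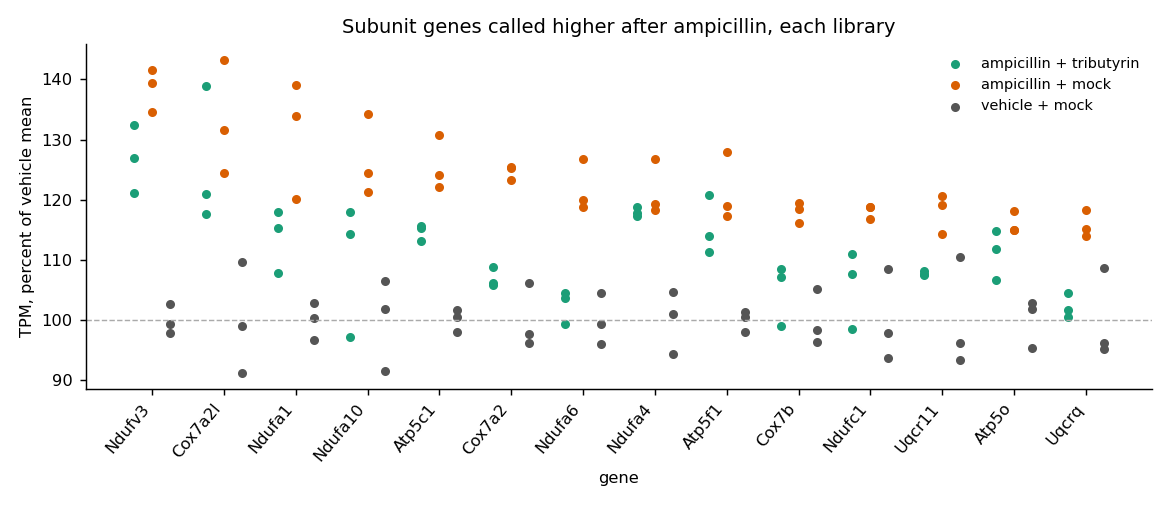
TPM of the 14 genes called higher with ampicillin, as percent of the vehicle-mock mean (vertical axis, not from 0), each point a library of ampicillin + tributyrin, ampicillin + mock or vehicle + mock. In each gene the ampicillin-mock points lie above the vehicle-mock points. The tributyrin points of Ndufa6 and Uqcrq lie near the vehicle-mock ones, and those of Ndufa4 near the ampicillin-mock ones. The genes were picked by their call over vehicle, which favours high ampicillin-mock values, so these positions are no separate result.

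Complex IV moved both ways within one small family. Cox7a subunits come in forms that fill the same position in the enzyme: Cox7a1 is the form known from heart, skeletal muscle and brown fat, Cox7a2 the form of most other tissues, and Cox7a2l a related protein that joins complexes III and IV, of which C57BL/6 mice carry a shortened version. Cox7a1 (chromosome 7, 30184171 to 30186030) had 355, 323 and 409 TPM in ampicillin-tributyrin libraries, 260.1, 271 and 249 TPM in ampicillin-mock libraries and 765, 638 and 677 TPM in vehicle-mock libraries. The groups were fully separate, with ampicillin-mock lowest. It fell by 1.41 on the log2 scale with ampicillin (log2 fold change -1.41 ± 0.10 (SE; adjusted p = 4.17e-05)), to 259.9 ± 10.8 TPM with ampicillin, against 693 ± 64.8 TPM with vehicle (SD, n = 3 each). Cox7a2 had 607, 593 and 591 TPM in ampicillin-tributyrin libraries, 688, 701 and 699.7 TPM in ampicillin-mock libraries and 592, 537 and 546 TPM in vehicle-mock libraries, a log2 fold change with ampicillin of 0.32 ± 0.05 (SE; adjusted p = 0.00195). Cox7a1 thus made up 37.7 ± 2.90% of the TPM of this pair in ampicillin-tributyrin, 27.2 ± 0.833% in ampicillin-mock and 55.3 ± 1.01% in vehicle-mock libraries (SD, n = 3 each). The sum of the pair was 959 ± 42.5 TPM, 956 ± 13.2 TPM and 1252 ± 94.4 TPM in the same groups. Cox7a2l had 419, 431 and 495 TPM in ampicillin-tributyrin libraries, 443, 469 and 510.4 TPM in ampicillin-mock libraries and 353, 325 and 391 TPM in vehicle-mock libraries, a log2 fold change with ampicillin of 0.41 ± 0.09 (SE; adjusted p = 0.0126). Of the 12 markers of fibroblasts, smooth muscle and endothelium, 10 had a mean under 1 TPM in ampicillin-tributyrin, 11 in ampicillin-mock and 10 in vehicle-mock libraries, and the muscle genes Acta2, Des and Myh11 averaged 0.0868, 0.00271 and 0.00889 TPM over the 9 libraries. Pecam1, an endothelial marker, moved with Cox7a1: it had 1.38 ± 0.276 TPM in ampicillin-tributyrin, 0.586 ± 0.066 TPM in ampicillin-mock and 3.79 ± 0.253 TPM in vehicle-mock libraries (SD, n = 3 each; ampicillin over vehicle -1.59 ± 0.11 (SE; adjusted p = 4.02e-05)), and its part in the result was not tested. Of the 12 markers of fibroblasts, smooth muscle and endothelium, 2 were tested by limma. The one other than Pecam1 was at -0.09 with ampicillin and was not called. With tributyrin over ampicillin-mock it was at -0.21, against 0.58 for Pecam1. Paneth-type secretory markers (8 genes) were lower with ampicillin in sum, and the sum was mostly Reg4. It was 1380 to 1624 TPM in ampicillin-mock, against 2846 to 3413 TPM in vehicle-mock libraries. Of the 6 genes of this list that were tested, 4 were called lower by limma (66.7%) and 0 higher, with a median log2 fold change of -1.96. At an unadjusted p under 0.05, 6 were lower and 0 higher. In ampicillin-mock, 4 of the 8 genes were at 0 TPM in each library. A mean under 1 TPM was found for 6 of the 8 in ampicillin-mock and for 1 in vehicle-mock libraries. With ampicillin, 10.2% of all genes tested were called lower by limma and 11.0% higher. Of 8 goblet cell markers 2 were lower (25.0%) and 0 higher, with a median log2 fold change of -0.36. Of 7 stem and cycling cell markers 2 were lower (28.6%) and 0 higher, with a median of -0.21. At an unadjusted p under 0.05 the counts of these 2 lists were the same. Of 9 absorptive colonocyte markers 3 were lower (33.3%) and 1 higher (11.1%), with a median of -0.01. Their part in the subunit changes was not tested either.

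**Figure D4:**
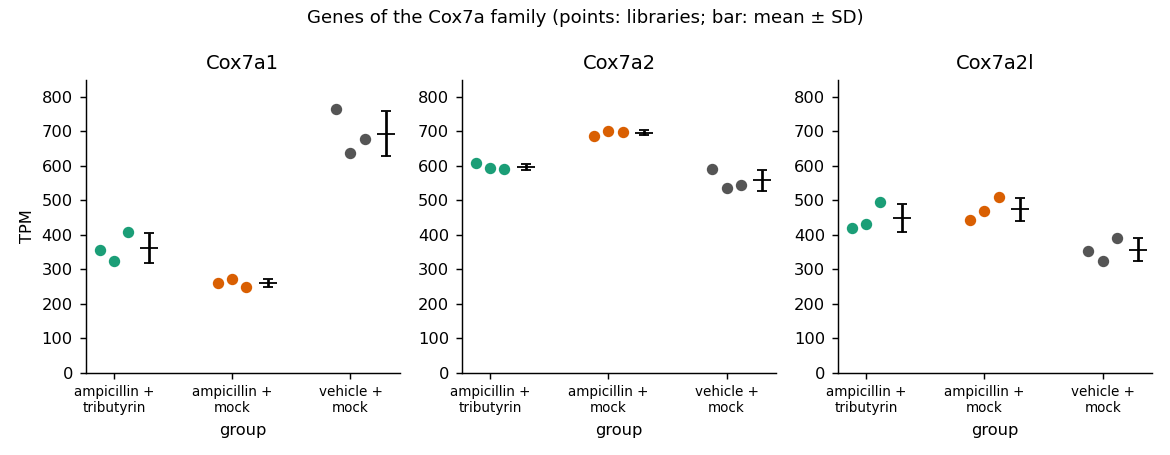
TPM of Cox7a1, Cox7a2 and Cox7a2l (vertical axis from 0) in each library, with mean and SD of 3 libraries beside the points, for ampicillin + tributyrin, ampicillin + mock and vehicle + mock. Cox7a1 lies at 638 to 765 TPM with vehicle and at 249 to 271 TPM in ampicillin-mock libraries, while Cox7a2 and Cox7a2l lie lowest with vehicle.

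Elsewhere in complex IV, Cox7b, a small subunit, rose with ampicillin: 678, 698 and 692 TPM, against 614, 574 and 563 TPM with vehicle, a log2 fold change of 0.24 ± 0.05 (SE; adjusted p = 0.0126). The most abundant subunits were not called. Cox4i1 was at 0.01 ± 0.08 (SE; adjusted p = 0.943), Cox6a1 at -0.02 ± 0.09 (SE; adjusted p = 0.903) and Cox5b at 0.06 ± 0.07 (SE; adjusted p = 0.611). Cox5a, Cox6b1, Cox6c, Cox7c and Cox8a, also not called, had log2 fold changes of 0.11, 0.08, 0.18, 0.20 and 0.23.

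Among the 15 calls of this comparison, Atp5c1, Atp5f1, Cox7a1, Cox7a2, Cox7a2l, Ndufa1, Ndufa6 and Ndufv3 kept theirs under each of the 22 alternative settings. The count of higher genes was 9 without ampicillin-mock replicate 2, where 6.63% of all genes tested were higher. Leaving out 1 library ended the calls of Ndufa10 (without vehicle-mock replicate 3 or ampicillin-mock replicate 1 or 2, adjusted p up to 0.0829), Atp5o (without ampicillin-mock replicate 3, 0.0555) and Cox7b (without ampicillin-mock replicate 2, 0.0502). Ndufc1 and Uqcr11 lost theirs without any 1 of the ampicillin-mock libraries or vehicle-mock replicate 2 or 3 (adjusted p up to 0.0938 and 0.1001), and Uqcrq also without ampicillin-tributyrin replicate 1 (up to 0.101).

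Tributyrin was set against mock gavage within the ampicillin groups to ask what the gavage changed. Subunit genes were mostly lower: 8 of 73 fell and 1, Cox7a1, rose. Over all genes tested, 7.54% were called lower and 15.6% higher. The subunits, with 8 lower (11.0%) and 1 higher (1.37%), were thus set against a background with more higher than lower calls. With TMM scale factors that background was 14.4% lower and 10.8% higher, and 22 subunit genes were lower. The median log2 fold change of the subunits was -0.12, against 0.05 over all genes tested and 0.01 over genes with a mean of at least 100 TPM. It was -0.12 in complex I, -0.12 in complex III, -0.13 in complex IV and -0.07 in complex V (-0.12 there without ampicillin-tributyrin replicate 3). With TMM scale factors the median of the subunits was -0.20, against -0.02 over all genes tested. In 30 genes each tributyrin library lay below each ampicillin-mock library, 41.1% of the subunits against 15.3% of all genes tested; the reverse held for Cox7a1 alone, against 27.3% of all genes tested. Of the 76 cytosolic ribosomal protein genes, 2 were higher and 0 lower by limma (14 and 0 at an unadjusted p under 0.05), with a median of 0.10. The difference in summed TPM from ampicillin-mock was -8.04% for complex I, -7.64% for complex III, -8.94% for complex IV and -4.85% for complex V, and for complex V it was -2.49% without ampicillin-tributyrin replicate 2. This comparison and the one with vehicle share the ampicillin-mock libraries, so no overlap of the calls is counted.

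In complex I, 4 genes fell. Ndufs7, the core subunit that carries the last iron-sulfur cluster before ubiquinone, had 349, 333 and 353 TPM in ampicillin-tributyrin libraries, 418, 421 and 409 TPM in ampicillin-mock libraries and 454, 394 and 423 TPM in vehicle-mock libraries. Its tributyrin libraries lay below all others, and the log2 fold change over ampicillin-mock was -0.27 ± 0.06 (SE; adjusted p = 0.0112). Ndufa6 had 694, 688 and 659.9 TPM in ampicillin-tributyrin libraries, against 797, 842 and 789 TPM in ampicillin-mock libraries, at -0.25 ± 0.05 (SE; adjusted p = 0.00926), near the 638 to 695 TPM of the vehicle-mock libraries. Ndufb2, an accessory subunit of the far end of the membrane arm, had 443, 416 and 489 TPM, against 529, 527 and 547 TPM in ampicillin-mock libraries, at -0.25 ± 0.07 (SE; adjusted p = 0.0388); the vehicle-mock libraries had 511, 439.8 and 484 TPM. Ndufa9, an accessory subunit near the junction of the arms, had 271, 260.5 and 281 TPM, against 299, 301 and 306 TPM in ampicillin-mock libraries, at -0.16 ± 0.04 (SE; adjusted p = 0.0365); the vehicle-mock libraries had 294, 276 and 291 TPM. For all of them the tributyrin and ampicillin-mock libraries were apart. Ndufv3 and Ndufa1, which rose with ampicillin, were not called here, at -0.13 ± 0.05 (SE; adjusted p = 0.0852) and -0.20 ± 0.06 (SE; adjusted p = 0.0517). Nor were Ndufa10 (log2 fold change -0.21, adjusted p = 0.115) and Ndufc1 (-0.16, adjusted p = 0.112), 2 other genes that rose with ampicillin. In ampicillin-tributyrin libraries Ndufa1 had 512, 499.6 and 467 TPM, Ndufa10 had 330.0, 341 and 281 TPM and Ndufc1 had 819.9, 750.4 and 845 TPM. The other 6 core subunits ran between -0.15 (Ndufs3) and -0.02 (Ndufv1) and were not called. Highest were Ndufb11 and Ndufb3, both at 0.02.

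In the other complexes, Uqcrfs1, the Rieske protein that takes electrons from ubiquinol, had 573, 529.8 and 614 TPM in ampicillin-tributyrin libraries, against 657, 651 and 713 TPM in ampicillin-mock libraries, and fell (-0.24 ± 0.07 (SE; adjusted p = 0.0427)); the vehicle-mock libraries had 617, 572 and 644 TPM. Uqcrq and Uqcr11, which rose with ampicillin, had 1681, 1750.1 and 1702 TPM and 1352, 1359.6 and 1352 TPM in ampicillin-tributyrin libraries and were not called over ampicillin-mock (-0.18, adjusted p = 0.054, and -0.13, adjusted p = 0.177). Cox7a2 and Cox7b fell too. Cox7a2 was at -0.22 ± 0.05 (SE; adjusted p = 0.012), with the tributyrin libraries between 591 and 607 TPM. Cox7b had 633, 625 and 578 TPM in ampicillin-tributyrin libraries, against 678, 698 and 692 TPM in ampicillin-mock libraries, at -0.17 ± 0.05 (SE; adjusted p = 0.0467). Cox7a1 was the only subunit gene that rose, at 0.47 ± 0.10 (SE; adjusted p = 0.01) by limma, with its tributyrin libraries above ampicillin-mock and below vehicle-mock libraries. Without the third replicate of every group, an alternative chosen after the data were seen, its adjusted p was 0.0819. Cox7a2l was at -0.08 ± 0.09 (SE; adjusted p = 0.551) and not called. Of the genes counted as complex V by name, 1 was called, Atp5s, needed in isolated membranes to couple proton flow to synthesis. Atp5s had 9.12, 10.3 and 8.44 TPM in ampicillin-tributyrin libraries, against 11.7, 13.4 and 11.5 TPM in ampicillin-mock libraries. It fell by limma (-0.36 ± 0.08 (SE, adjusted p = 0.0138)), and the vehicle-mock libraries had 10.6, 10.3 and 10.0 TPM. The alpha, beta and gamma subunits were at -0.11, -0.12 and -0.13 (adjusted p = 0.135, 0.0965 and 0.0541). The highest log2 fold changes here were 0.04 for Atp5h, subunit d of the stalk, and 0.04 for Uqcrh. None of these 5 was called.

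The count of lower genes was 5 without vehicle-mock replicate 3 (6.59% of all genes tested were lower there), 4 without ampicillin-mock replicate 1 (5.11% of all), 3 without ampicillin-mock replicate 2 (3.96%), 4 without ampicillin-tributyrin replicate 1 (6.45%) or 2 (4.53%) and 13 without ampicillin-tributyrin replicate 3 (6.24%). In each of these settings but the last, the count out of 73 is a share near that of all genes. With all libraries the shares were 11.0% of the subunits and 7.54% of all genes tested. Cox7a2, Ndufa6 and Ndufs7 kept their calls without any single library, but none of the 9 calls of this comparison held under all 22 alternative settings. Over those settings the adjusted p by limma ran up to 0.0834 for Cox7a2, 0.0629 for Ndufa6 and 0.0664 for Ndufs7. With 1 library left out, Atp5s lost its call without ampicillin-mock replicate 2 (adjusted p = 0.0512). The other 4 lower genes lost theirs without any 1 ampicillin-mock library or ampicillin-tributyrin replicate 1 or 2 (adjusted p up to 0.136). Uqcrfs1 also lost it without vehicle-mock replicate 1, Ndufb2 and Ndufa9 without vehicle-mock replicate 3, and Cox7b without vehicle-mock replicate 2 or 3 or ampicillin-tributyrin replicate 3. Markers of red blood cells and T cells moved with this comparison: erythroid markers summed to 94.4 to 134 TPM in ampicillin-tributyrin, against 13.4 to 36.6 TPM in ampicillin-mock libraries, and lymphocyte markers to 23.5 to 39.3 TPM, against 11.3 to 18.7 TPM. Their part in the subunit changes was not tested.

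**Figure D5:**
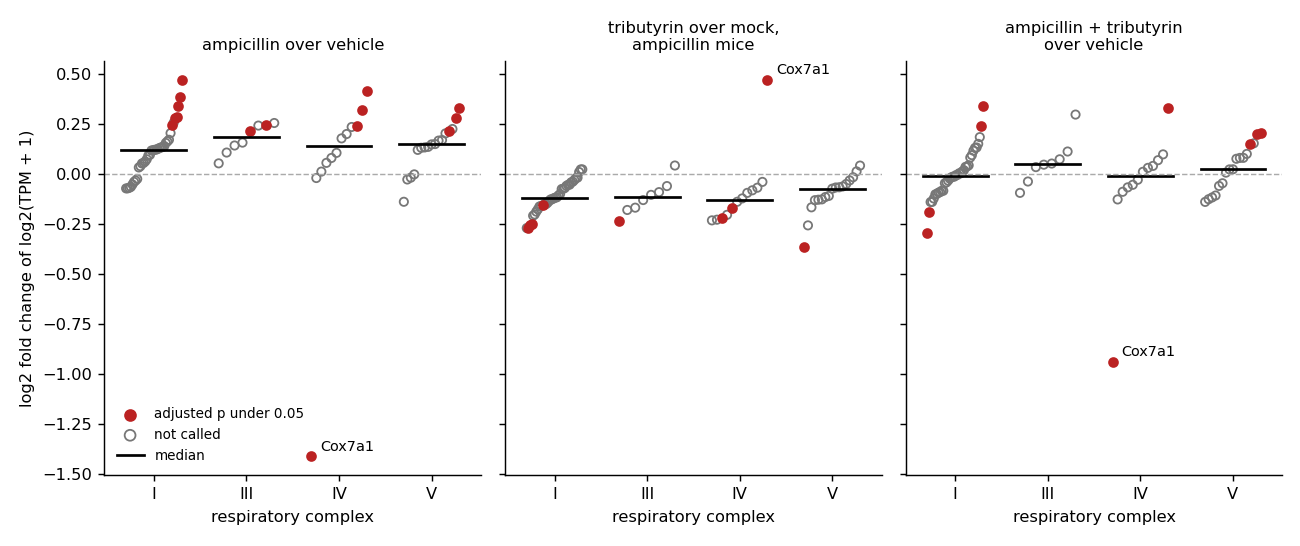
Log2 fold change of log2(TPM + 1) (vertical axis) of each of the 73 genes by complex, for ampicillin over vehicle (left), tributyrin over mock in ampicillin mice (middle) and ampicillin + tributyrin over vehicle (right); filled points have an adjusted p under 0.05 in limma and bars are medians. Most points lie above 0 on the left and below 0 in the middle, while Cox7a1 lies on the other side, at -1.41 and 0.47.

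Ampicillin with tributyrin was then set against vehicle with mock gavage. Relative to vehicle the subunits as a class lay near 0: 6 of 73 were higher and 3 lower. Over all genes tested, 19.1% were called higher and 9.21% lower, so the subunits' 8.22% and 4.11% were below the background in both directions. With TMM scale factors 1 subunit gene was higher and 5 lower, with 11.7% and 15.5% of all genes tested. The median log2 fold change of the subunits was 0.01 against 0.08 over all genes, and it turned negative with TMM (-0.09), median-of-ratios (-0.07) and quantile (-0.03) scaling and after rescaling without short RNA (-0.02), with array weights (-0.03), and without vehicle-mock replicate 2 (-0.02) or ampicillin-tributyrin replicate 3 (-0.03), so its sign depends on the scaling and on single libraries. Tributyrin libraries lay wholly above vehicle-mock libraries in 10 subunit genes and wholly below in 5, against 28.5% and 13.2% of all genes tested. Ndufv3 had 662, 693 and 723 TPM in ampicillin-tributyrin libraries, against 543, 535 and 561 TPM in vehicle-mock libraries, and rose (0.34 ± 0.05 (SE; adjusted p = 0.00171)). Cox7a2l (0.33 ± 0.09 (SE; adjusted p = 0.0268)), Ndufa4 (0.24 ± 0.05 (SE; adjusted p = 0.0103)), Atp5f1 (0.21 ± 0.05 (SE; adjusted p = 0.0188)), Atp5c1 (0.20 ± 0.04 (SE; adjusted p = 0.0105)) and Atp5o (0.15 ± 0.05 (SE; adjusted p = 0.0471)) were the other higher genes. Ndufa4 had 439, 444 and 440.4 TPM in ampicillin-tributyrin libraries, against 392, 378 and 353 TPM in vehicle-mock libraries. In ampicillin-tributyrin libraries Atp5f1 had 554, 542 and 588 TPM, Atp5c1 had 648, 649 and 636 TPM and Atp5o had 1169.7, 1115 and 1199.8 TPM. With TMM or median-of-ratios scaling Ndufv3 alone of these 6 kept its call. Cox7a2l also lost it without vehicle-mock replicate 1 or 2 or ampicillin-tributyrin replicate 2 or 3 (adjusted p up to 0.0734), and Atp5o with any 1 of the 9 libraries left out (up to 0.121). Cox7a1 fell by 0.94 on the log2 scale (-0.94 ± 0.10 (SE; adjusted p = 0.000415)), the furthest of the 73. Ndufs7 fell (-0.29 ± 0.06 (SE; adjusted p = 0.00654)), and so did Ndufs8, the core subunit with iron-sulfur clusters next to it, which had 266, 270.3 and 265 TPM in ampicillin-tributyrin, 295, 292 and 283 TPM in ampicillin-mock and 324, 307 and 285 TPM in vehicle-mock libraries (-0.19 ± 0.05 (SE; adjusted p = 0.0262)). Without vehicle-mock replicate 1 or 2 or ampicillin-tributyrin replicate 1 or 2 the call of Ndufs8 was lost (adjusted p up to 0.0715). In complex III 0 genes were called by limma, also at an unadjusted p under 0.05.

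Among genes that work with the complexes, calls ran in both directions. For comparison, 11% of all genes tested were higher and 10.2% lower with ampicillin, and 15.6% higher and 7.54% lower with tributyrin over ampicillin-mock. Complex II, which passes electrons from succinate to ubiquinone and is wholly nuclear-encoded, had 2 of 4 genes higher with ampicillin and 0 lower by limma, also at an unadjusted p under 0.05. Sdhd, its membrane anchor, had 491, 468 and 516 TPM in ampicillin-tributyrin, 546, 556 and 586 TPM in ampicillin-mock and 471, 452 and 495 TPM in vehicle-mock libraries; it rose with ampicillin (0.25 ± 0.06 (SE; adjusted p = 0.013)) and fell with tributyrin against ampicillin-mock (-0.19 ± 0.06 (SE; adjusted p = 0.0361)). Sdha, the flavoprotein, rose with ampicillin at 0.15 ± 0.04 (SE; adjusted p = 0.0369). Of 16 complex I assembly factors, 2 were higher and 2 lower with ampicillin (12.5% each way, near the shares of all genes), and 5 were higher (31.2%) and 1 lower (6.25%) with tributyrin over ampicillin-mock. Ndufaf4 averaged 20.8 ± 0.93 TPM in ampicillin-tributyrin, 16.8 ± 0.102 TPM in ampicillin-mock and 14.7 ± 0.598 TPM in vehicle-mock libraries (SD, n = 3 each), and rose in both (0.19 ± 0.05 (SE; adjusted p = 0.0301) and 0.29 ± 0.05 (SE; adjusted p = 0.00498)). Nubpl, which delivers iron-sulfur clusters to complex I, fell with ampicillin (-0.49 ± 0.11 (SE; adjusted p = 0.0156)). Ndufaf7 (0.59 ± 0.15 (SE; adjusted p = 0.0222)) and Ndufaf6 (0.43 ± 0.09 (SE; adjusted p = 0.009)) were the highest with tributyrin, and Ndufaf8 fell (-0.34 ± 0.09 (SE; adjusted p = 0.0237)). Of 6 complex III factors 1 was called with ampicillin, lower (Uqcc1, -0.38 ± 0.05 (SE; adjusted p = 0.0015)), and of 21 complex IV factors tested 1, higher (Higd2a, 0.18 ± 0.06 (SE; adjusted p = 0.0484)). With tributyrin over ampicillin-mock, 3 complex IV factors were called, all lower: Cox15, which makes heme A (log2 fold change -0.25), Coa3 (-0.24) and Higd2a (-0.18).

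Atpif1, the inhibitor that stops the ATP synthase from running backwards, averaged 269 ± 5.85 TPM in ampicillin-tributyrin, 279 ± 18.2 TPM in ampicillin-mock and 356 ± 20.0 TPM in vehicle-mock libraries (SD, n = 3 each) and fell with ampicillin (-0.35 ± 0.06 (SE; adjusted p = 0.00447)), the 1 called gene of 5 in its list. Of 6 carriers and porins, Slc25a4, an adenine nucleotide carrier abundant in muscle and heart, rose with ampicillin, with 139, 127 and 128 TPM, against 83.5, 76.2 and 83.9 TPM with vehicle (0.69 ± 0.06 (SE; adjusted p = 0.000137)), and Vdac3, a porin of the outer membrane, fell (-0.36 ± 0.09 (SE; adjusted p = 0.0241)). In coenzyme Q synthesis 2 of 13 genes rose and 2 fell with ampicillin (15.4% each way, against 11% and 10.2% of all genes tested), and 5 rose (38.5%) and 2 fell (15.4%) with tributyrin over ampicillin-mock, against 15.6% and 7.54% of all. Coq7, a hydroxylase of the pathway, averaged 78.0 ± 7.05 TPM in ampicillin-tributyrin, 123 ± 6.62 TPM in ampicillin-mock and 95.5 ± 5.18 TPM in vehicle-mock libraries, with log2 fold changes of 0.36 ± 0.07 (SE; adjusted p = 0.0101) with ampicillin and -0.65 ± 0.07 (SE; adjusted p = 0.00102) with tributyrin. Etfb, which carries electrons from fatty acid oxidation to the quinone pool, fell with ampicillin by limma (-0.43 ± 0.07 (SE, adjusted p = 0.00328)). It was the 1 called gene of 6 carriers and subunits outside the name rule, which include Cyc1 and Ndufab1.

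Of 19 regulators of mitochondrial biogenesis, 2 were called with ampicillin, both higher (10.5%, near the 11% of all genes tested): Ppargc1a (0.32 ± 0.07 (SE; adjusted p = 0.0171)) and Ppargc1b (0.34 ± 0.07 (SE; adjusted p = 0.0132)), coactivators of nuclear respiratory genes. Ppargc1a averaged 3.72 ± 0.26 TPM in ampicillin-tributyrin, 4.68 ± 0.382 TPM in ampicillin-mock and 3.55 ± 0.0815 TPM in vehicle-mock libraries (SD, n = 3 each), low levels beside Ppargc1b at 15.3 ± 0.665 TPM in ampicillin-mock and 11.9 ± 1.04 TPM in vehicle-mock libraries. With tributyrin over ampicillin-mock 4 rose (21.1%, against 15.6% of all genes tested) and 1, Ppargc1a, fell (-0.27 ± 0.07 (SE; adjusted p = 0.0343)). The risers were Twnk (0.40), Mterf1a (0.39), Tfam (0.21) and Tfb2m (0.17), which serve the copying and reading of mitochondrial DNA. Of 6 tested hypoxia-linked genes that bear on respiration, 4 were called with ampicillin, all higher, and 1 rose and 3 fell with tributyrin over ampicillin-mock. Egln3, an oxygen-sensing prolyl hydroxylase, had 11.1, 10.5 and 11.0 TPM in ampicillin-tributyrin, 18.2, 16.8 and 20.8 TPM in ampicillin-mock and 7.29, 7.84 and 6.32 TPM in vehicle-mock libraries (1.27 ± 0.09 (SE; adjusted p = 5.7e-05) with ampicillin and -0.72 ± 0.09 (SE; adjusted p = 0.0015) with tributyrin). Pdk1, a kinase that keeps pyruvate out of mitochondrial oxidation, rose with ampicillin (0.40 ± 0.06 (SE; adjusted p = 0.00178)) and fell with tributyrin (-0.45 ± 0.06 (SE; adjusted p = 0.00159)). The mitophagy receptors Bnip3 (1.07 ± 0.20 (SE; adjusted p = 0.00626)) and Bnip3l (0.34 ± 0.06 (SE; adjusted p = 0.00566)) rose with ampicillin. Ndufa4l2 and Cox4i2, subunit forms known as hypoxia-induced in other cells, were at or near 0 TPM in all 9 libraries.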

How the data were processed

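RNA was measured in 9 libraries of caecal epithelial cells, 3 per group, grouped by the sample titles; per the labels' protocols, cells were released with DTT, EDTA and Dispase. The deposited table gives the authors' TPM per gene. The submitters' processing notes name Salmon 0.8.2, the build mm10 and DESeq2 1.20.0 without saying what each was used for, and the sources used here do not give the index, the annotation or the strand setting. All 9 value columns matched a sample. A spreadsheet had turned 26 symbols into dates. Subunit genes have near-identical processed pseudogenes, and how reads were divided among them is uncertain.

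TPM are not counts, so limma 3.58.1 under R 4.3.3 was fitted to log2(TPM + 1) of the 12155 genes with a mean of at least 1 TPM, with 1 mean per group, 6 residual degrees of freedom, a variance trend on mean level and no replicate block. Calls were at a two-sided Benjamini-Hochberg adjusted p under 0.05 over all genes tested. Fold changes on this scale understate those of low genes. An exact permutation test of 3 against 3 libraries cannot give a two-sided p below 0.1. Alternatives were other pseudocounts, filters, scale factors (TMM, median-of-ratios, quantile), weights, a replicate block and leaving out libraries. The scripts were tested on simulated data.

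The members and the gene lists were chosen with earlier results of these data known. Named genes were the called members, the 2 furthest in the opposite direction, the highest and lowest of each complex, isoforms, core subunits and up to 4 called genes of each list. Positions and upstream bases came from RefSeq (GRCm38.p6), which matched all 73 genes. Python 3.11.15 with matplotlib 3.10.9 drew the figures.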

Additional observations from a re-analysis of the deposited data

How the results depend on the processing

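Of 33 calls of single genes, 10 held under all 22 alternatives, 23 were lost under at least 1, and 0 changed sign. Of the calls over vehicle, Cox7a1 and Ndufv3 held in both comparisons. The count of genes higher with ampicillin (14) was 9 to 16 with 1 library left out (6.63 to 12.2% of all genes tested) and 8 (4.60% of all) without the third replicate of every group, a setting chosen after seeing the data. For tributyrin over ampicillin-mock, the 8 lower genes (7.54% of all genes tested) became 5 with no filter on low values (4.27% of all), 22 with TMM (14.4%), 14 with median-of-ratios factors (12.4%), 15 with quantile normalization (13.6%), 15 after rescaling without short RNA (9.02%), 5 without the variance trend (7.11%), 21 with array weights (10.8%), 3 to 13 with 1 library left out (3.96% and 6.24%) and 1 without the third replicates (2.93%), where the 1 higher gene became 0 (9.07%), so the share of all genes moved with most of these counts. For ampicillin with tributyrin over vehicle, the 6 higher genes became 1 with TMM (11.7% of all) and 1 with median-of-ratios factors (12.9%), and the 3 lower genes became 5 with TMM (15.5%), 7 with quantile normalization (13.7%) and 6 with array weights (10.3%). The cause was not tested. The changes in summed TPM were recomputed only after rescaling without short RNA and with 1 library left out. There they moved by less than the spread between libraries. With 1 library left out they still ran over 2.33 to 8.17% for complex IV with ampicillin and over -6.99 to -2.49% for complex V with tributyrin over ampicillin-mock. How TMM, median-of-ratios or quantile scaling would move the sums was not examined.

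Replicate numbers recur in the 3 groups, but deviations of same-numbered libraries from their group means correlated at -0.05 to 0.108 over all genes, so the numbers were not taken to pair the libraries. Over the subunits alone these correlations were 0.41 to 0.901, against -0.876 to 0.786 for libraries of different groups with different numbers, so the 2 ranges overlap. Of the 9 libraries, 6 correlated best with a library of their own number over all genes and 8 over the subunits. This is a hint from the data and not from the design. With the replicate number as a block, 22 subunit genes were higher with ampicillin (11.3% of all genes tested) and 16 lower with tributyrin over ampicillin-mock (8.49% of all). Complex III then had 5 higher genes with ampicillin in place of 2, with Uqcrh (adjusted p = 0.0409), Uqcrb (0.0134) and Uqcrfs1 (0.0379) added by limma, and Uqcrh was also higher with ampicillin and tributyrin over vehicle (0.0213). Depth is unknown, the groups have 3 libraries each, and TPM cannot show a change in total RNA.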

Other observations

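Across the groups, libraries numbered 2 or 3 held like positions in part of the subunit genes. In 22 of the 73 genes (30.1%) replicate 3 was the highest library of each of the 3 groups, against 7.49% of all genes tested. Replicate 2 was the lowest in all groups for 13 genes (17.8%), against 1.80% of all genes tested, and replicate 3 was the lowest for 12 (16.4%), against 10.4%. Atp5l, Uqcrh and Ndufa2 are among those with replicate 3 highest, and Atp5g2, Ndufa12 and Cox8a among those with it lowest, named after their values were seen. Atp5g2, 1 of the genes of ring subunit c, had 575, 654 and 385 TPM in ampicillin-tributyrin, 701, 697 and 506 TPM in ampicillin-mock and 653, 611 and 454 TPM in vehicle-mock libraries. Atp5g3, which encodes the same mature protein, had 2399, 2127 and 2765 TPM in ampicillin-tributyrin, 2417, 2469.7 and 2721 TPM in ampicillin-mock and 2355, 2038 and 2487 TPM in vehicle-mock libraries, with replicate 3 highest. The labels do not say what a replicate number stands for. The median coefficient of variation of the subunit genes within a group was 6.62% in ampicillin-tributyrin, 4.15% in ampicillin-mock and 6.87% in vehicle-mock libraries.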
